A study of Mus musculus with 2 samples.

Results

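The 10 serotonin receptor genes Htr1a, Htr1b, Htr2a, Htr2c, Htr3a, Htr4, Htr5a, Htr5b, Htr6 and Htr7 were taken by gene symbol from 55536 annotated mouse genes. They were chosen with earlier results of these data known. They were measured in total RNA from samples labelled as a layer of the hippocampus, taken from 2 male adults aged 8 to 10 months of the strain B6CASTF1/J, described as B6 X Cast. Each animal gave 1 library from 300 ng of RNA, made with a directional kit and with ERCC spike-ins for libraries depleted of ribosomal RNA. Replicate 1 was animal 2 and replicate 2 was animal 4, and both carry 1 donor entry. They form 1 group, with no treatment or genotype contrast in the labels, so there is no comparison between conditions. With 1 library per animal, an animal, its dissection and its library cannot be told apart.

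Serotonin reaches the hippocampus in axons of neurons whose cell bodies lie in the raphe nuclei of the brainstem. All but one of the receptors described here are G protein-coupled receptors: the Htr1 and Htr5 groups couple mainly to Gi/o proteins that lower cyclic AMP and open potassium channels, the Htr2 group to Gq proteins that release calcium, and Htr4, Htr6 and Htr7 to Gs proteins that raise cyclic AMP. The exception, Htr3a, is a subunit of a cation channel that serotonin opens directly. In the hippocampus they lie on pyramidal cells, granule cells and interneurons and set the excitability of the circuit.

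The depth was 23408838 expected counts (estimated reads) on annotated genes in replicate 1 and 29512441 in replicate 2. Levels are TPM, a relative abundance corrected for transcript length, with the deposited interval bounds in each library, then mean ± SD (n = 2). The bounds cover counting and the division of shared reads, and not the spread between animals. A second deposited table, made from the read files without that alignment, gives the same genes by another quantification. The 5 listed marker genes of CA1 neurons, the 5 of CA3 neurons and the 5 of dentate granule cells were above 1 TPM in both libraries. Replicate 2 also held RNA of choroid plexus, the ventricular epithelium that makes cerebrospinal fluid: the 9 listed markers summed to 17.9 TPM in replicate 1 and 1792 in replicate 2, or 9.18 and 88.8 without transthyretin (Ttr). The ependyma markers summed to 17.4 and 25.4 TPM, and the striatum markers to 40.5 and 53.1. The largest part of the striatum sum was Ppp1r1b (26.2 and 38.4 TPM). The striatum markers Rgs9 (6.54 and 5.73) and Adora2a (0.54 and 0.47) were lower in replicate 2, as was the ependyma marker Tmem212 (2.42 and 1.79). Drd1 (5.09 and 5.74) and Drd2 (1.42 and 1.96) were higher there, and Gpr6 was level (0.72 in each). All other listed ependyma markers were higher in replicate 2, among them Tekt1 (0.82 and 1.86) and Dynlrb2 (0 and 2.28).

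All 10 receptor genes had reads and were above 1 TPM in both animals, and together they summed to 79.4 TPM in replicate 1 and 82.2 in replicate 2 (80.8 ± 1.99). Because the 10 were chosen with earlier results known, their detection describes the chosen genes and not the whole receptor family. Outside the 10, Htr1f was above 1 TPM, Htr1d was below it, and Htr2b and Htr3b had 0 counts. Htr1a, Htr2c and Htr4 formed an upper group, from 12.5 to 18.5 TPM in replicate 1 and from 14.1 to 19.3 in replicate 2. The other 7 genes lay at or below 7.12 and 7.18 TPM. The highest gene of a library was 5.38 times the lowest in replicate 1 and 6.13 times in replicate 2. In bulk tissue, fewer cells of a type and less RNA per cell cannot be told apart.

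**Figure D1:**
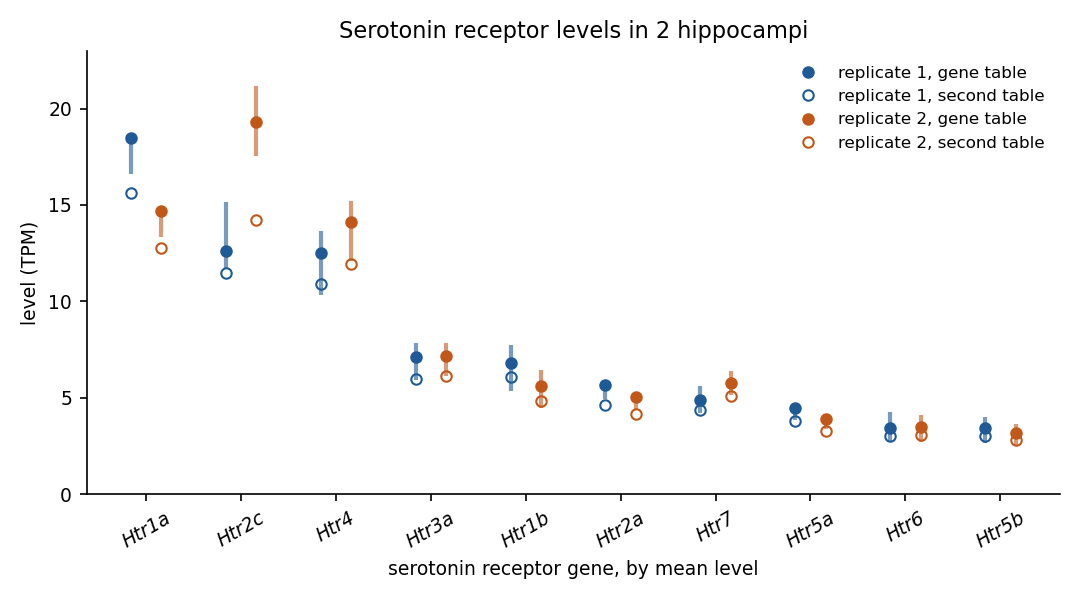
Level of each receptor gene (y axis, TPM) in the 2 libraries (blue, replicate 1, and orange, replicate 2), ordered by mean. Filled points are the gene table with its interval bounds as bars and open points the second table. Htr1a, Htr2c and Htr4 lie above the other 7 genes in both libraries.

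Of the 45 pairs of receptor genes, 31 were separated, meaning that in each library the bounds did not overlap and the same gene was higher. All 21 pairs between the upper 3 genes and the other 7 were separated. None of the 3 pairs within the upper group was: Htr1a lay above Htr2c in replicate 1 and below it in replicate 2, with bounds apart both times. Among the other 7 genes 10 of 21 pairs were separated, and each neighbour in the order Htr3a, Htr1b, Htr2a, Htr7, Htr5a, Htr6 and Htr5b overlapped with the next in at least 1 library. By the mean, the 10 genes ranked from 6713 to 11490 among the 13029 protein-coding genes at 1 TPM or more in both libraries. The median of those genes was 17.4 TPM, and the mean of every receptor lay below it. In single libraries Htr1a (18.5 TPM in replicate 1) and Htr2c (19.3 TPM in replicate 2) lay above that value.

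Htr1a, the Gi/o-coupled receptor that hyperpolarises pyramidal and granule cells and also serves as the autoreceptor of raphe neurons, is a gene of 1 exon on chromosome 13 (105443639 to 105448122, plus strand, mm10). It was at 18.5 TPM in replicate 1 (bounds 16.6 to 18.6; 1142 counts) and 14.7 in replicate 2 (13.4 to 15.0; 1226 counts), or 16.6 ± 2.67. The bounds did not overlap, with replicate 1 higher. By the second table the levels were 15.6 and 12.8 TPM. The upper bound of replicate 1 lay close to the TPM value itself, since the bounds surround a posterior mean (17.6 TPM) and not the deposited TPM.

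Htr1b, the Gi/o-coupled receptor of axon terminals that lowers transmitter release, lies on chromosome 9 (81628291 to 81633828, minus strand). It was at 6.80 TPM in replicate 1 (bounds 5.34 to 7.76) and 5.62 in replicate 2 (4.48 to 6.45), or 6.21 ± 0.834, with overlapping bounds. Its annotated forms share the same coding sequence of 386 codons and differ outside it. The longer form Htr1b-202 took 71.5% and 67.4% of the gene's TPM. On the opposite strand the antisense gene D430036J16Rik overlaps Htr1b, at 1.11 and 1.91 TPM. The strand setting of the authors' counting is not stated in the labels or file notes, so reads in the overlap are uncertain.

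Htr5a and Htr5b are close relatives that couple to Gi/o proteins, and Htr5b is a working gene in mice while its human counterpart is a pseudogene. Htr5a (chromosome 5, 27842149 to 27855088, plus strand) was at 4.48 TPM in replicate 1 (bounds 3.83 to 4.74) and 3.87 in replicate 2 (3.36 to 4.10), or 4.18 ± 0.431. Htr5b (chromosome 1, 121509842 to 121528465, minus strand) was at 3.44 TPM (2.64 to 3.99; 89 counts) and 3.15 (2.50 to 3.64; 110 counts), or 3.30 ± 0.205, the lowest mean of the 10. The pair was not separated by the bounds. Each has 1 annotated transcript. The 4 Gi/o-coupled genes summed to 33.2 TPM in replicate 1 and 27.3 in replicate 2, which is 41.8% and 33.3% of the TPM of all 10 genes.

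Htr2a, the Gq-coupled target of classical hallucinogens, which is best known from the neocortex, lies on chromosome 14 (74640840 to 74709494, plus strand). It was at 5.67 TPM in replicate 1 (bounds 4.91 to 5.92) and 5.02 in replicate 2 (4.43 to 5.26), or 5.35 ± 0.460, with overlapping bounds. The 5 neocortex markers summed to 77.6 and 76.8 TPM. Whether neocortex next to the hippocampus added Htr2a reads was not tested.

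Htr2c, the other Gq-coupled member, is known for RNA editing, for alternative splicing and for very high expression in choroid plexus. It lies on chromosome X (146962513 to 147197277, plus strand), spans 234765 bases and has 7 annotated transcripts. It was at 12.6 TPM in replicate 1 (bounds 11.7 to 15.1; 799 counts) and 19.3 in replicate 2 (17.5 to 21.2; 1545 counts), or 15.9 ± 4.74. The bounds were apart, with replicate 2 higher, and the SD was the largest of the 10 genes. Htr2c exceeded Htr2a 2.22-fold in replicate 1 and 3.84-fold in replicate 2. The Gq pair summed to 18.3 TPM and 24.3 TPM.

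Htr2c and the choroid plexus markers were both higher in replicate 2. With 2 libraries any gene higher in replicate 2 shares that direction, and the markers' part in the Htr2c difference was not tested. All 9 markers were higher in replicate 2, with Ttr at 8.68 and 1703 TPM, Kl at 4.51 and 19.7, Folr1 at 0.25 and 17.5, and Otx2 at 0.80 and 3.50. With edgeR 8 of the 9 passed (0.806% of all tested genes did), and Otx2 did not (adjusted p = 0.0567). The list was chosen with earlier results of these data known. None of the 9 was at 0 in replicate 1. The second table gave Htr2c 809 and 1555 estimated counts, with a log2 ratio of 0.69 (edgeR, adjusted p = 0.367), close to the first table's ratio. Its TPM values, 11.5 and 14.2, lay closer together than those of the first. It placed 19.8 estimated counts of replicate 1, and 0 of replicate 2, on the short form Htr2c-203, which came to 1.89 TPM. Without that form it gave 9.61 and 14.2 TPM.

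Most Htr2c message was assigned to the full coding form. Htr2c-201 was at 10.9 TPM in replicate 1 (bounds 7.72 to 11.0) and 13.03 in replicate 2 (9.91 to 13.7), which is 86.4% and 67.5% of the gene. The second table gave it 71.0% and 76.1%, so the tables differed on which library had the larger share. Htr2c-202 has the same coding sequence with an added exon before it, and was at 0.00 and 1.49 TPM with overlapping bounds. Together the forms that keep the full coding sequence of 459 codons took 86.4% and 75.2% by the first table, and 73.6% and 83.2% by the second.

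The coding form Htr2c-207 skips a segment of 95 bases (chromosome X, 147169676 to 147169770) and so leaves the reading frame, with 172 codons before its stop. The skipped segment holds the stretch in which ADAR enzymes edit adenosines to inosines. These coding stretches around the junction (chrX:147169646-147193798, plus strand, mm10, introns removed) are given 5′ to 3′ from GENCODE M21 because they carry the difference between the forms, with the skipped segment in capitals.
Htr2c-201: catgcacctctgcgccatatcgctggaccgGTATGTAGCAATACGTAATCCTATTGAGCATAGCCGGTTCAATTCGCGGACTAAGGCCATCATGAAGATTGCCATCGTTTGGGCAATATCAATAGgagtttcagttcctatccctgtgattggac
Htr2c-207: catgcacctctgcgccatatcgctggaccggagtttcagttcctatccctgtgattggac

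Forms without the segment were the minority in both libraries and by both tables. Htr2c-207 was at 0.85 TPM in replicate 1 (bounds 0.152 to 2.04) and 1.74 in replicate 2 (0.679 to 3.70), with overlapping bounds. Set against Htr2c-201 and Htr2c-202 it was 7.25% and 10.7% of the 3 forms by the first table, and 6.20% and 8.21% by the second. The short model Htr2c-203 lacks the segment too, and with it counted the shares were 8.19% and 10.7% by the first table and 22.4% and 8.21% by the second. Replicate 2 had the larger share of Htr2c-207 by both tables, and with Htr2c-203 added the second table gave replicate 1 the larger share. Editing within the segment is not measured by these tables. The editing enzymes Adar (77.2 and 61.7 TPM) and Adarb1 (60.37 and 50.03 TPM) were both present.

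Summed, the forms without a coding sequence had a larger share in replicate 2 by both tables, and no test was made of transcripts. Htr2c-204, Htr2c-205 and Htr2c-206 together took 5.88% of Htr2c in replicate 1 and 15.8% in replicate 2, and 5.11% and 9.34% by the second table. Singly, only Htr2c-206 had a larger share in replicate 2 by both tables (3.56% and 7.04%, and 3.10% and 7.60%). Htr2c-204 had a smaller share there by both (2.33% and 1.77%, and 2.01% and 1.74%). Htr2c-205 was at 0% and 6.95% by the first table and at 0 in both libraries by the second. Htr2c-206, a retained-intron form made only of the untranslated 5′ part of the gene, was at 0.45 TPM (bounds 0.248 to 0.681; 18.1 counts) and 1.36 (0.996 to 1.66; 74.0 counts). Its bounds did not overlap, and the second table placed 18.1 and 74.1 counts on it. The share of all transcripts with bounds apart was not counted. Of tested genes, 3.97% had bounds apart with replicate 2 higher. Introns of Htr2c also hold annotated small RNAs, of which Snora35, Mir764, Mir1912, Mir1264, Mir1298, Mir448 and Gm24627 had 0 counts in both libraries, which allows up to 3 counts each. The miRNA gene Gm22650 had 0 counts in replicate 1 and 3 in replicate 2, which its short length turns into 31.5 TPM, and was at 0 in the second table.

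**Figure D2:**
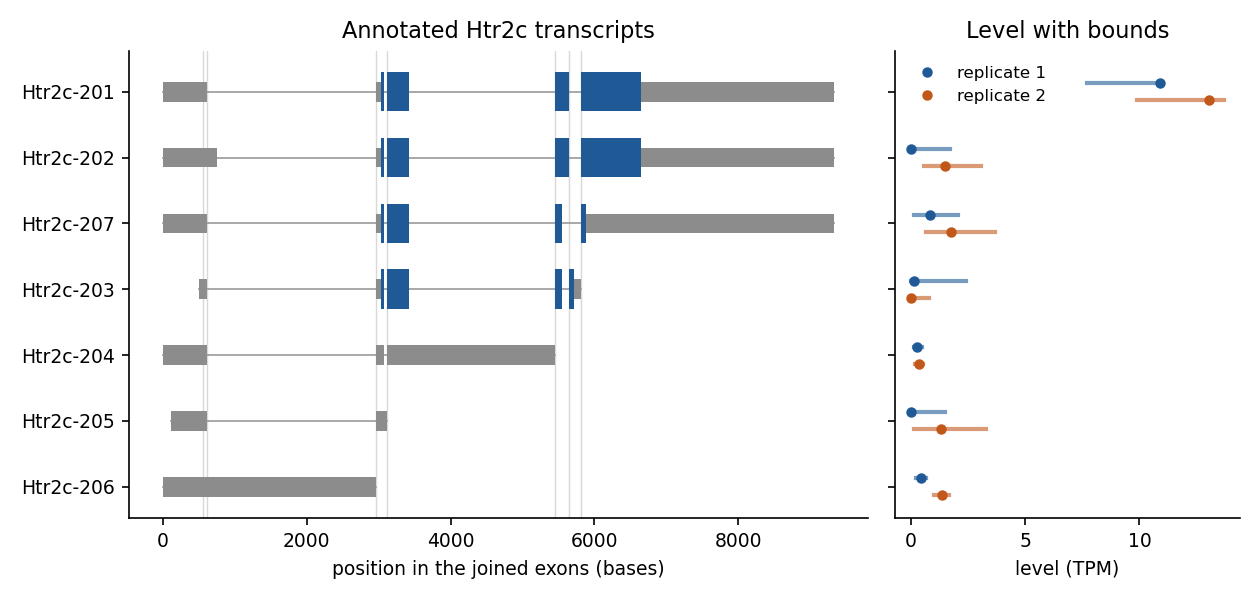
Left, the exons of the 7 annotated Htr2c transcripts (grey, and blue where coding) along the joined exons, in bases from the start of the gene, with vertical lines where introns were removed. Right, the level of each transcript (TPM) with its bounds in replicate 1 (blue) and replicate 2 (orange). Htr2c-201 led in both, and for Htr2c-206 the bounds were apart between the libraries. The share of all transcripts with bounds apart was not counted.

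Htr4 is a Gs-coupled receptor of pyramidal and granule cells whose splice forms differ in the intracellular tail. It lies on chromosome 18 (62324204 to 62496577, plus strand) and was at 12.5 TPM in replicate 1 (bounds 10.3 to 13.6) and 14.1 in replicate 2 (12.1 to 15.2), or 13.3 ± 1.14, with overlapping bounds. By the first table the form of 387 codons had 47.7% and 54.5% of the gene, and the form of 388 codons 37.3% and 32.3%. Their TPM bounds overlapped in replicate 1 (0.955 to 7.21 against 3.84 to 4.99) and in replicate 2 (4.03 to 9.31 against 3.89 to 4.90). By the posterior mean the order turned in replicate 1, with 35.4% for 387 codons and 36.8% for 388. The forms of 363 codons (9.12% and 5.07%) and 377 codons (5.90% and 8.07%) were lower. By the second table the form of 387 codons took 8.77% in replicate 1 and 55.2% in replicate 2, so in replicate 1 the form of 388 codons led there with 40.6%. Neither form can be called the leading one in either library, while the level of the gene was 10.9 and 11.9 TPM by that table.

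Htr6, the Gs-coupled receptor found mainly in forebrain neurons and at their primary cilia, lies on chromosome 4 (139061108 to 139075570, minus strand). It was at 3.43 TPM in replicate 1 (bounds 2.73 to 4.23; 104 counts) and 3.50 in replicate 2 (2.68 to 4.12; 119 counts), or 3.46 ± 0.0495. Its annotated forms code for the same 440 codons and differ outside them. The shorter form of 1362 bases took 9.50% in replicate 1 and 46.1% in replicate 2, and 6.08% and 40.5% by the second table, from 5.81 and 38.7 counts by the first. The TPM bounds of this form (0.00 to 1.43, and 0.533 to 2.51) overlapped between the libraries, and in replicate 2 they overlapped those of the longer form (1.29 to 2.54).

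Htr7, the Gs-coupled receptor linked to circadian timing and to hippocampal learning, lies on chromosome 19 (35958734 to 36057507, minus strand). It was at 4.90 TPM in replicate 1 (bounds 4.19 to 5.59) and 5.77 in replicate 2 (5.12 to 6.41), or 5.34 ± 0.615, with overlapping bounds. Its coding forms share the receptor core and end in different intracellular tails. The last coding bases are given 5′ to 3′ on the coding strand from GENCODE M21 on mm10, stop codon included, with the bases beyond the stretch shared by all 3 forms in capitals. They lie between chr19:35960357-35969338 on the minus strand and are given because the tail is what differs.
Htr7 form of 448 codons: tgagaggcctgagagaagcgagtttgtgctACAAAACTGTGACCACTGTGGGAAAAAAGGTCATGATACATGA
Htr7 form of 435 codons: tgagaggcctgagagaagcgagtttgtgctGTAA
Htr7 form of 470 codons: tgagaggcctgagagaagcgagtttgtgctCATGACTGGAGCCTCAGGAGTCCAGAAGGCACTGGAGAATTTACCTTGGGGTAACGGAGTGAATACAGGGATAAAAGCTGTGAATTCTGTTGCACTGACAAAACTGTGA

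The forms of 448 and 435 codons carried nearly all coding message, and the form of 470 codons was listed at 0 TPM in both libraries by the first table and at 0.107 and 0 by the second. The form of 448 codons was at 2.78 TPM (bounds 0.516 to 3.20) and 2.39 (0.915 to 3.64), and the form of 435 codons at 0.60 (0.000115 to 1.83) and 1.96 (0.340 to 2.72). The bounds of these forms overlapped within each library, so neither can be called the leading tail. Of the coding forms, that of 435 codons was 17.8% and 45.1% by the first table and 45.6% and 50.3% by the second. Forms annotated for nonsense-mediated decay, the pathway that destroys messages with early stops, took 30.9% and 24.7% of Htr7, and 37.0% and 36.3% by the second table. The Gs-coupled genes Htr4, Htr6 and Htr7 summed to 20.8 TPM and 23.4 TPM, or 26.2% and 28.4% of all 10.

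Htr3a, the channel subunit that in cortex and hippocampus marks interneurons of the CCK, VIP and reelin classes, lies on chromosome 9 (48899213 to 48911099, minus strand). It was at 7.12 TPM in replicate 1 (bounds 5.90 to 7.83; 190 counts) and 7.18 in replicate 2 (6.14 to 7.82; 259 counts), or 7.15 ± 0.0424. The 7 genes listed for these interneurons ranged from Vip (8.15 and 8.26 TPM) to Cck (253 and 268 TPM). Pyramidal cells also make Cck, and the listed Gad1 (191 and 182 TPM) and Gad2 (45.4 and 42.0 TPM) are not particular to these classes. The partner subunit Htr3b had 0 counts in both libraries, which allows up to 3 counts each, or 0.128 and 0.102 CPM (counts scaled to library size). The second table gave it 0.117 and 0.0551 TPM.

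The known long and short forms of Htr3a differ by an insert of 18 bases, or 6 codons, in the stretch that codes for the large intracellular loop (chromosome 9, 48899991 to 48900008). The coding strand around it (chr9:48899961-48900590, minus strand, mm10, introns removed) is given 5′ to 3′ from GENCODE M21, with the insert in capitals.
Htr3a-201: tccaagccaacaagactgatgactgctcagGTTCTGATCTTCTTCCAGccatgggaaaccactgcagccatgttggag
Htr3a-202: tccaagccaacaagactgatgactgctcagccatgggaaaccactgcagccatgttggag

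The short form Htr3a-202 led in both libraries and by both tables. It was at 6.75 TPM in replicate 1 (bounds 4.86 to 7.39) and 6.38 in replicate 2 (4.84 to 7.14), above Htr3a-201 at 0.38 (0.0170 to 1.56) and 0.80 (0.193 to 1.82). The long form was 5.33% and 11.1% of the gene by the first table but 31.7% and 27.3% by the second. The order of the forms was shared by the tables, and the size of the minority was not.

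**Figure D3:**
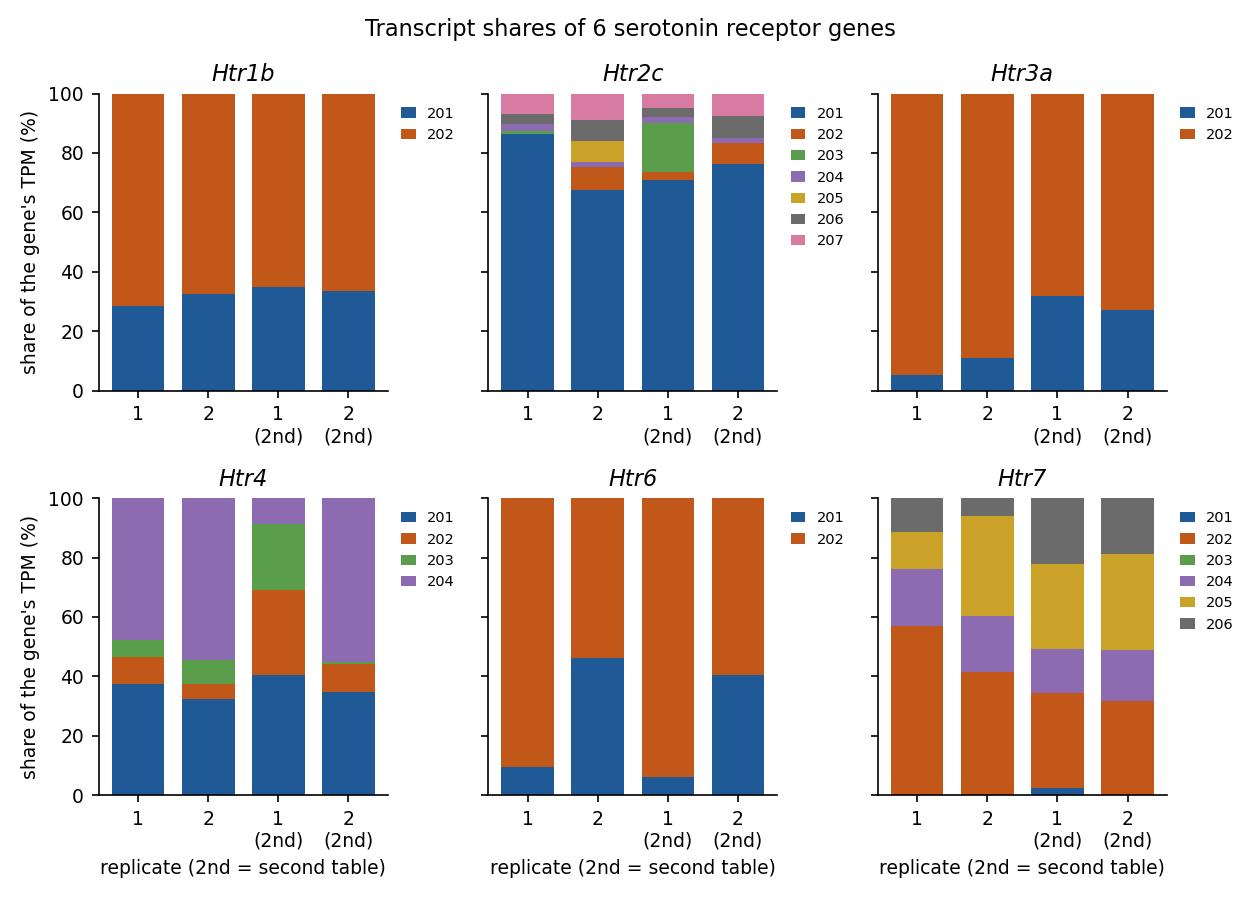
Share of each gene's TPM (y axis, %) taken by its annotated transcripts (colours, numbered as in the annotation) for the 6 receptor genes with more than 1 transcript, in replicates 1 and 2 by the first table and by the second table (2nd). The same transcript led in all 4 bars for Htr1b, Htr2c, Htr3a and Htr6, and not for Htr4 and Htr7.

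Of the 6 receptor genes with more than 1 annotated transcript, 4 had the same leading transcript in both libraries and by both tables: Htr1b, Htr2c, Htr3a and Htr6. For Htr4 and Htr7 the leading form changed with the library in the second table. The other 4 genes have 1 transcript each.

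Between the libraries no receptor gene passed the test, which asked whether a gene differed by more than the trend for genes of its abundance. With edgeR, 0 of 10 passed (0.806% of 16123 tested genes did), and 1 of 10, Htr2c, had an unadjusted p under 0.05 (4.83% of tested genes). Htr2c had a log2 ratio of replicate 2 over replicate 1 of 0.64, a 1.55-fold difference (edgeR, adjusted p = 0.304), and over the alternatives its adjusted p ranged from 0.304 to 1.00. The other 9 ratios ran from -0.21 (Htr1a and Htr1b) to 0.38 (Htr7), with unadjusted p from 0.340 to 0.990. The members' median log2 ratio was -0.03, against -0.00 over all tested genes. The test compares these 2 libraries, with 1 residual degree of freedom per gene, and not conditions.

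Of the 10 receptor genes, the 2 with TPM bounds apart between the libraries, Htr1a and Htr2c, are read against 25.8% of tested genes with bounds apart. These were mostly higher in replicate 1: 21.9% of tested genes were so, as Htr1a was, and 3.97% were higher in replicate 2, as Htr2c was. Bounds hold no spread between animals, and TPM was not rescaled between libraries.

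**Figure D4:**
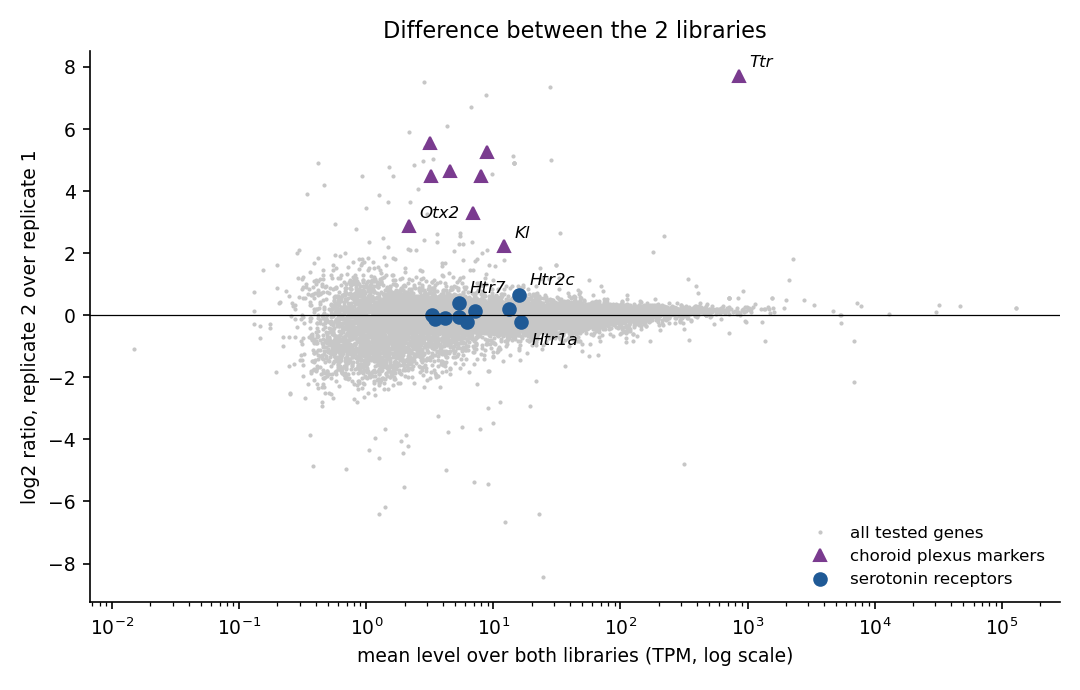
Log2 ratio of replicate 2 over replicate 1 (y axis, TMM-scaled counts) against mean level (x axis, TPM, log scale) for all 16123 tested genes (grey), the 10 serotonin receptors (blue circles) and the 9 choroid plexus markers (purple triangles). The receptors lie between -0.21 and 0.64, with Htr2c the highest of them, and the choroid plexus markers between 2.24 and 7.71.

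Of the listed serotonin receptors beyond the 10, only Htr1f was above 1 TPM. Htr1f, a Gi/o-coupled receptor, was at 3.40 TPM in replicate 1 and 1.93 in replicate 2 (log2 ratio -0.69, edgeR adjusted p = 1.00). In replicate 1 Htr1f was close to Htr6 (3.43 TPM) and Htr5b (3.44 TPM). The bounds of Htr1f were apart with replicate 1 higher, as for 21.9% of tested genes. Htr1d was at 0.17 and 0.09 TPM from 5 counts in each library. Htr2b had 0 counts in both, which allows up to 3 counts each, and was at 0.029 and 0 TPM by the second table.

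Transcripts of the serotonin-making neurons were near 0, and the 4 raphe markers summed to 0.49 and 0.61 TPM. Tph2, the rate-limiting enzyme of serotonin synthesis in the brain, was at 0.34 and 0.37 TPM, and the serotonin transporter Slc6a4 at 0.13 and 0.07. The raphe transcription factor Fev had 0 counts. Of the 11 genes of synthesis, packaging, uptake and breakdown, 4 reached 1 TPM. They were the monoamine oxidases Maob (9.23 and 12.6 TPM) and Maoa (8.25 and 9.72), the low-affinity transporter Slc29a4 (18.4 and 17.7), and the synthesis enzyme Ddc (5.42 and 5.63).

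Most intracellular partners were more abundant than the receptors. All 9 Gα subunit genes were above 10 TPM, from Gnai3 (14.47 and 13 TPM) to Gnas, the Gs alpha gene (891 and 907), with the Go gene Gnao1 at 319 and 304 and the Gq gene Gnaq at 91.9 and 90.5. Among 10 effectors, the cyclic AMP sensor Rapgef4 was highest (212 and 217 TPM) and the phospholipase Plcb3 lowest (8.96 and 7.63), and the potassium channel subunits that Gi/o-coupled receptors open, Kcnj3 (52.8 and 59.4), Kcnj6 (62.7 and 48.5) and Kcnj9 (43.6 and 35.7), lay between. Of 14 partners and regulators, the scaffold gene Dlg4 was highest (422 and 388) and the kinase Grk5 lowest (5.87 and 5.42), with Ric3, a chaperone of the Htr3a channel, at 37.9 and 38.0. Of all 48 other pathway genes, with the other receptors and the synthesis genes included, 29 had a mean above that of Htr1a. With edgeR, 0 of the 40 tested passed (0.806% of all tested genes did). None had an unadjusted p under 0.05 (4.83% of all tested genes did). Their median log2 ratio was 0.03.

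**Figure D5:**
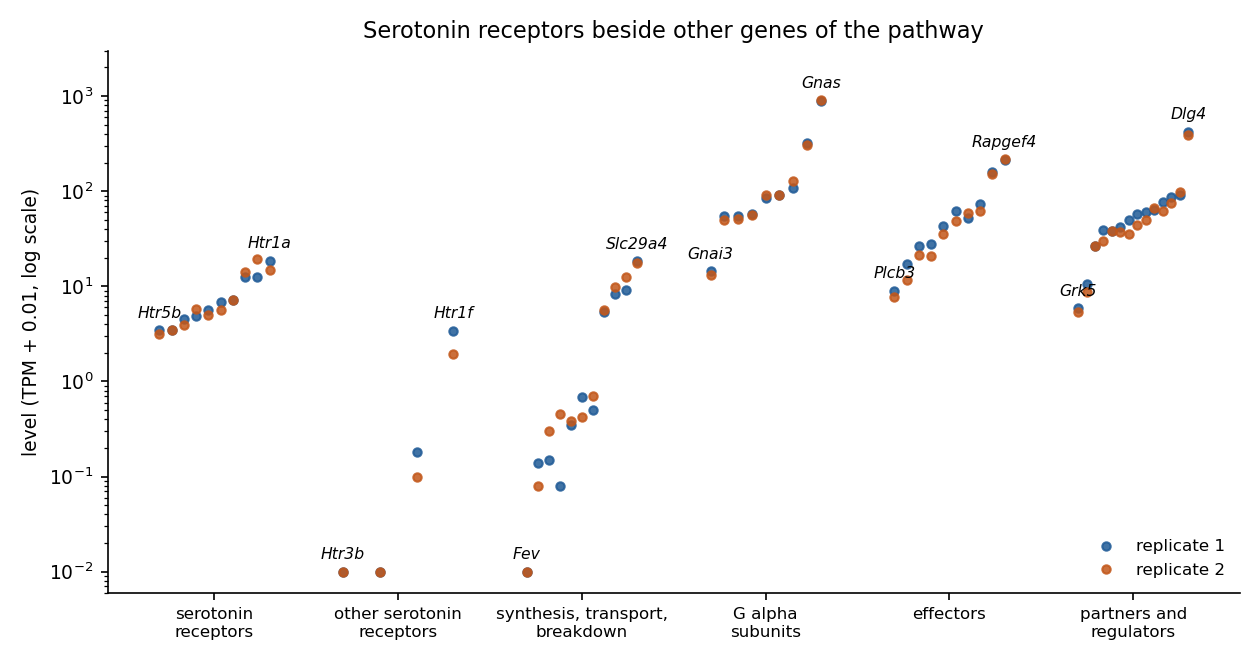
Level (y axis, TPM with 0.01 added, log scale) of the 10 serotonin receptors and of 48 other pathway genes in 5 lists, each gene a point in replicate 1 (blue) and replicate 2 (orange), sorted within a list, with the lowest and highest gene named. Genes at 0.01 were listed at 0, and all 9 Gα subunit genes lie above 10 TPM.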

How the data were processed

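RNA of 1 group of 2 animals was analysed. Per the deposited file notes, the tables use mm10 and GENCODE M21, and no program is named in the labels or notes. From an alignment to the transcriptome the authors deposited expected counts (estimated reads), TPM, interval bounds of TPM (a signal with no stated level) and the percent of a gene's TPM per transcript. A second deposited table, from the read files, gives estimated counts and TPM per transcript, summed here per gene. Reads of the cross were placed on mm10, and the effect on Cast alleles was not tested.

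Members were matched by symbol, and all 55536 genes were found in GENCODE M21, which gave the sequences. Rows that name no annotated gene, such as spike-ins (0.210% and 0.243% of counts), were left out. Expected counts were rounded and tested with edgeR 4.0.16 (R 4.3.3) over the 16123 genes that reached a CPM of 1 in either library. The model had TMM scaling, an intercept alone and trended dispersion, and each gene's residual deviance was compared with a chi-square distribution (1 degree of freedom), with Benjamini-Hochberg adjustment and a threshold of 0.05. The quasi-likelihood test needs a coefficient, which 1 group lacks. Log2 ratios use a prior count of 2. The fit was tested on simulated data. P-values measure how far a gene's spread between the 2 samples exceeds the trend for genes of its abundance. That trend was estimated from the same 2 samples, and part of the spread may be technical. Bounds cover counting and the division of shared reads, and the limit of 3 counts covers counting error only. Neither covers PCR copies, which without identifiers may repeat a molecule. Alternatives were other scalings, filter, dispersion, prior count, posterior means, the second table and each library alone. The naming rule took all members, and from the pathway lists the genes that passed and those that set a list's range. Marker lists were outside the rule. Other list genes were named after their values were seen. Members and lists were chosen with earlier results of these data known.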

Additional observations from a re-analysis of the deposited data

How the results depend on the processing

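No paired analysis was possible because the labels give 1 group, and a log2 ratio cannot be had without either library. No receptor gene and no other pathway gene passed under the 6 alternatives for scaling, filter, dispersion and quantification. Few genes of any kind did: 94 of 16123 with spike-in scaling, 123 of 26849 with no filter and 119 of 17411 by the second table. The number of all genes called moved from 130 to 341 of 16123 with the common dispersion. Scaling by spike-ins moved the median log2 ratio of all tested genes to -0.23 and turned Htr4 to -0.043 and Htr3a to -0.096. The second table turned Htr2a to 0.026 and Htr5b to 0.057, and no filter on low counts turned Htr5b to 0.026. The cause was not tested. Htr2c stayed above 0, from 0.41 to 0.69. By the second table the summed level of the 10 genes was 68.5 TPM, the Gi/o sum 26.1, the Gs sum 19.2 and the channel 6.04, and by posterior means the channel was 6.895. Of the 45 pairs, 26 were separated by the second table, where a 1.5-fold gap in both libraries stood in place of bounds. With each library alone, 34 to 36 of the 45 pairs were separated, and the summed level was 79.4 to 82.2 TPM. The sums of Gi/o, Gq, Gs and channel genes were then 27.3 to 33.2, 18.3 to 24.3, 20.8 to 23.4 and 7.12 to 7.18 TPM. Depth limits the lowest genes most: Htr5b and Htr6 rest on 89 to 119 counts per library.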
